A study of Homo sapiens with 21 samples.

Results

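Integrins are the receptors by which epithelial cells hold on to the extracellular matrix, and the 10 genes described here encode integrin subunits, most of them typical of epithelial cells. They were taken by gene symbol from the raw count data, which list 60651 human genes, and all 10 were found: the α subunits ITGA2, ITGA3, ITGA5, ITGA6 and ITGAV and the β subunits ITGB1, ITGB3, ITGB4, ITGB5 and ITGB6. The counts come from 21 xenograft tumors, 7 in each of 3 groups. Every tumor was grown from A549-Luc2, a luciferase-marked derivative of the human lung adenocarcinoma line A549, mixed with Matrigel and placed under the skin of female athymic nu/nu mice aged 6 to 8 weeks. Mice of the Control group received the formulation without compound, and mice of the Oxy186 and Oxy210 groups received that oxysterol derivative daily by gavage at 50 mg/kg. All tumors therefore share 1 cell line, the luciferase construct, the Matrigel and a host without T cells, and 7 of the 10 mice randomized to each group are represented. Matrigel is itself a basement membrane extract rich in laminin, a ligand of several of these receptors.

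An integrin is a pair of 1 α and 1 β subunit, and the pair sets the ligand. With ITGB1, ITGA2 forms a collagen receptor, ITGA3 and ITGA6 form laminin receptors, and ITGA5 forms the classical fibronectin receptor. ITGA6 also pairs with ITGB4 to form α6β4, which anchors epithelial cells to laminin through hemidesmosomes. ITGAV pairs with ITGB1, ITGB3, ITGB5 and ITGB6, which gives receptors for vitronectin, fibronectin and the latent form of TGF-β. ITGB6 is made by epithelial cells, and αvβ6 is known as an activator of TGF-β, whereas ITGB3 is best known from platelets, where it pairs with ITGA2B, and from endothelial cells and osteoclasts.

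The genes lie on 6 chromosomes of GRCh38. ITGB6, ITGA6 and ITGAV share chromosome 2, where ITGB6 spans 160099667 to 160200313 on the minus strand, ITGA6 spans 172427354 to 172506459 on the plus strand and ITGAV spans 186590010 to 186680901 on the plus strand. ITGA3 (50055968 to 50090481), ITGB3 (47253827 to 47313743) and ITGB4 (75721328 to 75757818) lie on the plus strand of chromosome 17. ITGA2 is on chromosome 5 from 52989340 to 53094779 (plus strand), ITGA5 on chromosome 12 from 54395261 to 54419266, ITGB1 on chromosome 10 from 32887273 to 33005792 and ITGB5 on chromosome 3 from 124761948 to 124901418 (all minus strand). Their exons differ widely in base composition. Exon GC content was 36.7% for ITGAV, 40.2% for ITGA2, 41.1% for ITGB6, 41.8% for ITGB1 and 42.5% for ITGA6, a GC-poor set. It was 54.0% for ITGB5, 55.5% for ITGA5, 57.4% for ITGA3 and 64.0% for ITGB4, with ITGB3 between the sets at 49.2%. Whether counting used strand is not given in the sources used here, and 16.7% of the exon bases of ITGB6 and 33.2% of those of ITGB3 also belong to another annotated gene on the same strand. Genes on the opposite strand overlap 5.26% of the exon bases of ITGA6, 2.75% of those of ITGB1, 1.05% of those of ITGAV and 0.65% of those of ITGA5, whose reads cannot be told apart if counting ignored strand. The counts of these 6 genes are uncertain to that extent.

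Sequence upstream of the transcription start, from RefSeq on GRCh38.p14, was at hand for 7 of the 10 genes, all but ITGA3, ITGB3 and ITGB4. The window shown runs from 250 to 51 bases before the start. ITGA2 and ITGAV are printed because their RNA rose and fell with that of ITGB1 across tumors, and ITGB6 because its log2 fold change against Control was the highest of the 10 genes in each comparison. The RNA of ITGA6 also rose and fell with that of ITGB1, but its window is described without being printed. Capitals mark the letters GGGCGG, the core of the GC box bound by Sp1 and KLF factors, on either strand.
ITGA2, chr5:52989102-52989301, plus strand: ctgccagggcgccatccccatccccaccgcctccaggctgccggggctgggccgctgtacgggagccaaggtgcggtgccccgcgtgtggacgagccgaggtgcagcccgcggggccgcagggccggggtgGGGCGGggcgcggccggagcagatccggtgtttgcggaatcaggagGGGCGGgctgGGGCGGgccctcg
ITGAV, chr2:186589806-186590005, plus strand: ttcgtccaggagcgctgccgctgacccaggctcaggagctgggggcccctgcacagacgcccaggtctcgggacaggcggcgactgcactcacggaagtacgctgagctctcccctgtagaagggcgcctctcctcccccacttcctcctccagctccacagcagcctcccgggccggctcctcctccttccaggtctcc
ITGB6, chr2:160200323-160200522, minus strand: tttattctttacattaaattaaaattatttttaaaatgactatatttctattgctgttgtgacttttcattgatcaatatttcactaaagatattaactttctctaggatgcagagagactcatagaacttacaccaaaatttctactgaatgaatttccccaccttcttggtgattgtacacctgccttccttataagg
The ITGA2 window had a GC content of 78.5%, 23 CG dinucleotides and 3 GC boxes, and the ITGB1 window, not printed, had 77%, 25 and 3. The ITGAV window had a GC content of 69% with 12 CG dinucleotides and no GC box. The ITGA6 window, not printed, had a GC content of 51.5% with 6 CG dinucleotides and no GC box. The ITGB6 window had a GC content of 29.5% and no CG dinucleotide at all. Over 35116 windows of the same length and place, the median GC content was 57.5%, the median number of CG dinucleotides was 8, and 35% held a GC box. TGACTCA, the site of AP-1, and TATAAA were searched on both strands too and were not in any of the 7 windows, against 3.23% and 7.63% of all windows. With shares this small, absence from 7 windows says little. The window ends 51 bases before the start, so a TATA box nearer the start would not be seen. ITGA2 and ITGB1 had GC-rich windows and GC-poor exons, whereas ITGB6 was GC-poor and ITGA5 (window 70.5%) GC-rich in both.

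Library totals on human genes were 13818998 to 17865119 counts for Control, 14008787 to 15776682 for Oxy186 and 13787493 to 15758662 for Oxy210. Epithelial markers were plentiful: KRT8 had at least 51847 counts in every tumor, EPCAM at least 1424 and CDH1 at least 1466, and the 6 markers together made 9228 to 13550 CPM (counts scaled to a common library size) in Control, 8644 to 15358 in Oxy186 and 7345 to 12990 in Oxy210. Each list of markers of other cell types held genes at or near 0 and genes counted in every tumor. Of the endothelial genes, PECAM1 had 14 to 58 counts, CDH5 2 to 43 and TEK 1 to 13. The endothelial genes VWF and KDR were each at 0 in 18 of 21 tumors, the 5 endothelial markers together made 1.70 to 6.71 CPM in Control, 1.78 to 4.28 in Oxy186 and 1.98 to 5.14 in Oxy210, and PTPRC, which marks leukocytes, had a median of 3 counts, against 16 for CD14, with the 4 leukocyte markers summing to 0.868 to 4.09, 0.880 to 2.33 and 1.17 to 1.93 CPM. Among 4 platelet markers GP9 was at 0 in 20 of 21 tumors, while PF4, PPBP and GP1BA were counted in all, and the 4 together made 8.98 to 19.2, 9.29 to 25.7 and 6.38 to 16.4 CPM. Of 6 fibroblast markers, LUM and COL1A1 made most of the sum of 115 to 234 CPM in Control, 103 to 233 in Oxy186 and 78.4 to 157 in Oxy210, and COL1A2 was at 0 in 17 of 21. The libraries also differed in how their counts followed the GC content of genes. This GC slope, in log2 CPM for every 10 percentage points of exon GC relative to the mean library, ran from -0.15 to 0.40 in Control, from -0.33 to 0.26 in Oxy210, from -0.51 to -0.18 in Oxy186 r1 to r4 and from 0.079 to 0.49 in Oxy186 r5 to r7. The study set Oxy186 r1 to r4 apart on a principal component plot of these same libraries and carried only those 4 forward, so results are given with all 7, with r1 to r4 and with r5 to r7.

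ITGB1 and ITGB4 were the integrin RNAs with the highest levels per length. Levels were compared between genes as RPKM, counts scaled by library size and TMM factor per kilobase of annotated exon. Over all 21 tumors ITGB1 stood at 77.9 ± 17.8 (SD) and ITGB4 at 59.8 ± 21.9. They were followed by ITGA3 at 37.4 ± 10.6, ITGB5 at 32.2 ± 8.03, ITGAV at 23.4 ± 6.25 and ITGA6 at 18.5 ± 3.21. ITGA2 at 7.09 ± 2.28, ITGA5 at 5.62 ± 1.65 and ITGB6 at 3.46 ± 1.43 were lower. ITGB3 came last at 0.088 ± 0.044, with 1 to 21 counts in a tumor, near the detection limit. Neighbors in this order whose means lay within 1 SD of each other were ITGB1 and ITGB4, ITGA3 and ITGB5, ITGAV and ITGA6, and ITGA2 and ITGA5. Annotated exon length mattered for some of these values. With the longest transcript of each gene as the length instead, ITGB1 was at 201.9, ITGB4 at 68.6, ITGA3 at 66.8, ITGAV at 56.9 and ITGB5 at 47.2, and 6 of the 10 genes kept their place.

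**Figure D1:**
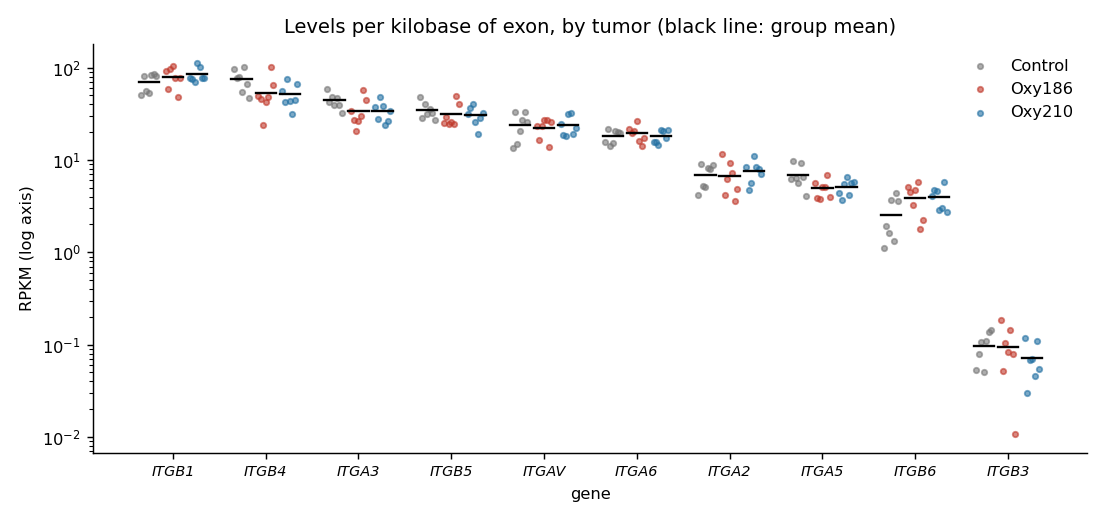
RPKM (log axis) of the 10 integrin subunit genes in each tumor, ordered by the mean over 21 tumors, with Control in gray, Oxy186 in red and Oxy210 in blue and a black line for each group mean. Over all tumors the means run from 77.9 (ITGB1) to 0.088 (ITGB3), and in Control the mean of ITGB4 (74.6) lay above that of ITGB1 (70.1). With the longest transcript as the length, not drawn, ITGB1 (181.9) lay above ITGB4 (85.6) in Control.

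ITGB1 made up 38.8 ± 8.54% (SD, n = 7) of the summed RPKM of the β subunits among the members in Control, 47.8 ± 13.4% in Oxy186 and 49.9 ± 10.1% in Oxy210. This share leaves out other β subunits and depends on the length used. By the longest transcript the Control means were 181.9 for ITGB1 and 85.6 for ITGB4, against 70.1 and 74.6 by annotated exon. Within Oxy186 this share ran from 24.3% in r6 to 65.0% in r3. The ratio of ITGB4 to ITGA6, the 2 subunits of α6β4, was 4.23 ± 1.40 in Control, 3.03 ± 1.96 in Oxy186 and 2.96 ± 1.16 in Oxy210, with its lowest value, 1.17, in Oxy186 r3 and its highest, 7.02, in Oxy186 r6. These 2 tumors also had the lowest and the highest GC slope of all, -0.51 and 0.49, and the part of the slope in these ratios was not tested.

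Between the Oxy210 and Control groups, the laminin receptor subunits ITGB4 and ITGA3 and the fibronectin receptor subunit ITGA5 had lower means after Oxy210, and ITGB6 had a higher one, but none of these differences passed the adjusted test. ITGB4 had log2 CPM of 8.32 at the lowest, 9.02 at the median and 9.42 at the highest in Control, and of 7.73, 8.24 and 8.98 in Oxy210. All 7 Oxy210 values were below the Control median, and 4 were below every Control value. The log2 fold change was -0.52 (standard error, SE, 0.19, adjusted p = 0.288, by the quasi-likelihood test of edgeR, with p-values adjusted by Benjamini-Hochberg). ITGA3 ran through 8.32, 8.72 and 9.16 in Control and 7.88, 8.38 and 8.90 in Oxy210, so that 1 Oxy210 tumor lay above the Control median. Its log2 fold change was -0.37 (SE 0.15, adjusted p = 0.309). ITGA5 ran through 4.91, 5.55 and 6.19 in Control and 4.77, 5.36 and 5.60 in Oxy210, and its log2 fold change was -0.41 (SE 0.18, adjusted p = 0.326). ITGB6 ran through 2.73, 3.50 and 4.68 in Control and 3.99, 4.57 and 5.06 in Oxy210. All 7 Oxy210 tumors were above the Control median for ITGB6 and 3 were above every Control tumor, and the log2 fold change was 0.67 (SE 0.28, adjusted p = 0.320).

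Thus 4 of the 9 integrin genes tested had an unadjusted p under 0.05, 3 lower and 1 higher, where 13.8% of the 16396 genes tested did (8.12% lower and 5.72% higher). The same counts, 3 lower and 1 higher, came from DESeq2 (9.15% of all genes lower and 5.90% higher) and limma voom (7.81% and 6.23%). At an adjusted p of 0.05 or less, edgeR, DESeq2 and limma voom each left 0 of the 9, where edgeR called 0% of all genes. The other members had log2 fold changes from -0.17 (ITGB5) to 0.29 (ITGB1), and the median over the 9 was 0.0019, against 0.0086 over all genes tested. The groups overlapped for every member. Among all genes, 0.0793% did not overlap and were lower, and 0.0671% did not overlap and were higher. Only alignments to human chromosomes were counted, so these values do not cover the mouse host cells. In bulk RNA of the human cells, fewer cells with a given RNA and less RNA per cell cannot be told apart. When the GC trend of each library entered the fit as offsets, the log2 fold change was -0.24 for ITGB4, -0.22 for ITGA3, -0.29 for ITGA5 and 0.61 for ITGB6, with adjusted p-values of 0.482, 0.347, 0.498 and 0.325 in edgeR. Of the 9, ITGA3 and ITGB6 then stayed at an unadjusted p under 0.05, 1 lower and 1 higher, where 7.54% of all genes were lower and 6.83% higher, so 2 of 9 was near the share of 14.4% over all genes. Some marker genes were also lower in Oxy210 at an unadjusted p under 0.05 in edgeR, where 8.12% of all genes were lower. They were KRT19 (log2 fold change -0.78), DCN (-1.27), LUM (-0.50), CD14 (-0.80) and PPBP (-0.71). DCN and CD14 were sparse, with medians of 24 and 16 counts. Of the markers tested, 1 of 6 epithelial, 1 of 3 fibroblast and 1 of 3 platelet genes had a log2 fold change above 0. Counted on human genes, these markers do not measure the mouse host cells. The part of the marker genes in the integrin differences was not tested.

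**Figure D2:**
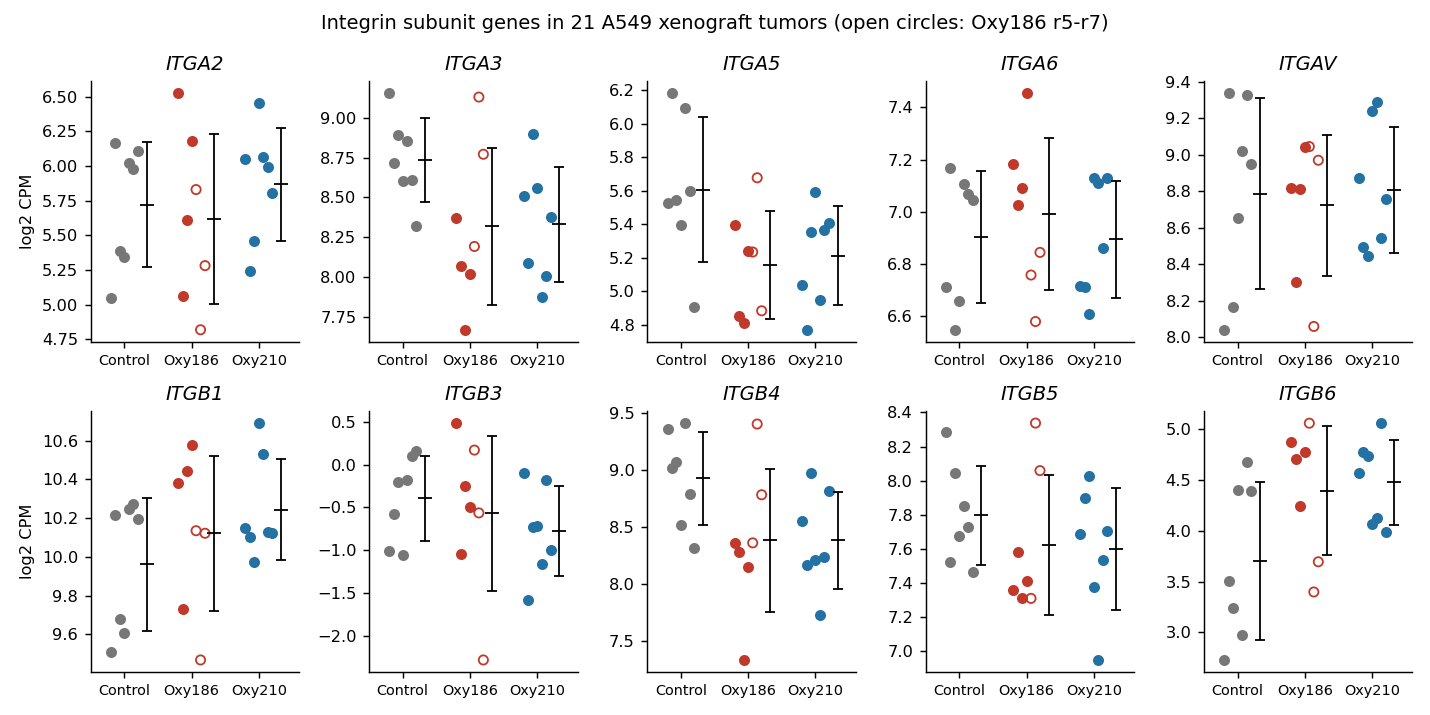
Log2 CPM (TMM-normalized, y axis) of each gene in every tumor, by group, with the group mean and SD in black and Oxy186 r5 to r7 as open circles. ITGB6 in Oxy210 lies from 3.99 to 5.06, above the Control median of 3.50 in all 7 tumors, and ITGB4 in Oxy186 runs from 7.33 (r3, filled) to 9.41 (r6, open).

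With all 7 Oxy186 tumors, the differences from Control ran the same way for these 4 genes, over a wider spread. The Oxy186 and Oxy210 comparisons share their Control tumors and are not independent of each other. ITGA5 ran through 4.81, 5.23 and 5.68 in Oxy186, and 6 of 7 tumors were below the Control median of 5.55. Its log2 fold change was -0.50 (SE 0.19, adjusted p = 0.862). ITGB4 ran through 7.33, 8.36 and 9.41 (log2 fold change -0.49, SE 0.25, adjusted p = 0.862), from below the lowest Control value to just under the highest one. ITGA3 ran through 7.67, 8.19 and 9.13 (log2 fold change -0.38, adjusted p = 0.862). ITGB6 ran through 3.40, 4.71 and 5.06, and 6 of 7 tumors were above the Control median of 3.50 (log2 fold change 0.61, SE 0.33, adjusted p = 0.862). In this comparison 1 of 9 members, ITGA5, had an unadjusted p under 0.05, where 3.79% of the 16291 genes tested did (2.36% lower and 1.44% higher), and 0 had an adjusted p of 0.05 or less in edgeR, DESeq2 and limma voom. DESeq2 gave 1 and limma voom 3 members at the unadjusted p, all lower, where 2.32% and 6.22% of all genes were lower by these tools. The median log2 fold change over the 9 was -0.13, against -0.0067 over all genes.

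Without r1 to r4, that is with r5 to r7 against Control, the log2 fold change of ITGB4 was -0.076 and that of ITGA3 was -0.021, while ITGA5 was at -0.38 and ITGB6 at 0.35. With GC offsets and all 7 tumors, ITGB4 was at 0.0065, ITGA3 at -0.17, ITGA5 at -0.32 and ITGB6 at 0.53, each with an unadjusted p above 0.05 in edgeR. The difference of ITGB4 was thus near 0 both without those 4 libraries and with the offsets, and of these 4 genes ITGB6 moved least in relative size under the offsets.

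Against Control, the Oxy186 tumors r1 to r4 had lower ITGB4 and ITGA3. These tumors were chosen by the study on the same libraries, so p-values here describe the chosen set and are not independent evidence of a response. ITGB4 was at 8.37, 8.28, 7.33 and 8.15 in r1 to r4, and 3 of the 4 values lay below the Control range. In r5, r6 and r7 it was at 8.36, 9.41 and 8.79. The log2 fold change of r1 to r4 was -0.90 (SE 0.23, adjusted p = 0.0147, edgeR), and leaving out Oxy186 r3, the lowest tumor, raised the adjusted p above 0.05 at a log2 fold change of -0.71. ITGA3 was at 8.37, 8.07, 7.67 and 8.02 in r1 to r4 and at 8.19, 9.13 and 8.77 in r5 to r7, and r1 to r4 differed from Control by -0.71 on the log2 scale (SE 0.17, adjusted p = 0.00967). ITGA3 and ITGB4 are the 2 members with the most GC-rich exons. With GC offsets the log2 fold change was -0.19 for ITGA3 (adjusted p = 0.434) and 0.20 for ITGB4 (adjusted p = 0.606), so neither passed and ITGB4 changed sign.

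The other GC-rich members had log2 fold changes of -0.57 (ITGA5, adjusted p = 0.0712) and -0.41 (ITGB5, adjusted p = 0.0766), and leaving out Control r7 brought both to an adjusted p of 0.05 or less, at -0.66 and -0.46. ITGB6 was at 4.88, 4.71, 4.24 and 4.78 in r1 to r4, all above the Control median, and the log2 fold change was 0.79 (SE 0.32, adjusted p = 0.0940). It passed in limma voom, the test of the study, at 0.96 (adjusted p = 0.0426), without the filter at 0.78 (adjusted p = 0.0332), with the replicate block at 1.17 (adjusted p = 0.0190), and without Control r6, the Control tumor with the most ITGB6, at 0.99. It did not pass in DESeq2 (adjusted p = 0.0584) or with GC offsets, where it stood at 0.60 (adjusted p = 0.308). Nor did it pass in edgeR with RLE normalization (adjusted p = 0.0848), library size alone (0.0868) or a minimum of 10 counts (0.0863). The same held for all 21 libraries in one fit (0.0840) and for GC offsets with the block (0.198). Of the 11 fits that left out 1 library, only that without Control r6 passed. ITGB1 (0.32), ITGA6 (0.27), ITGA2 (0.17) and ITGAV (-0.097), the remaining GC-poor members, had adjusted p-values from 0.190 to 0.804. ITGB3, which did not pass the filter on low counts in the comparisons of 7 with 7 tumors, had a log2 fold change of 0.12. In all, 2 of 10 members, both lower, had an adjusted p of 0.05 or less, where 19.7% of all 16852 genes had one (15% lower and 4.73% higher). The count was thus near the share over all genes and says little of integrins in particular. DESeq2 also gave 2 lower, and limma voom gave 2 lower and 1 higher, ITGB6. None of the 10 also had a fold change over 2, in edgeR, DESeq2 or limma voom, where edgeR called 8.34% of all genes (8.13% lower and 0.214% higher). At an unadjusted p under 0.05 there were 4 lower and 1 higher, against 34.7% of all genes (21.7% lower and 13% higher). All members overlapped with Control, while 8.54% of all genes did not overlap and were lower and 3.1% higher. The median log2 fold change over the 10 was 0.013, against 0.0060 over all genes.

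**Figure D3:**
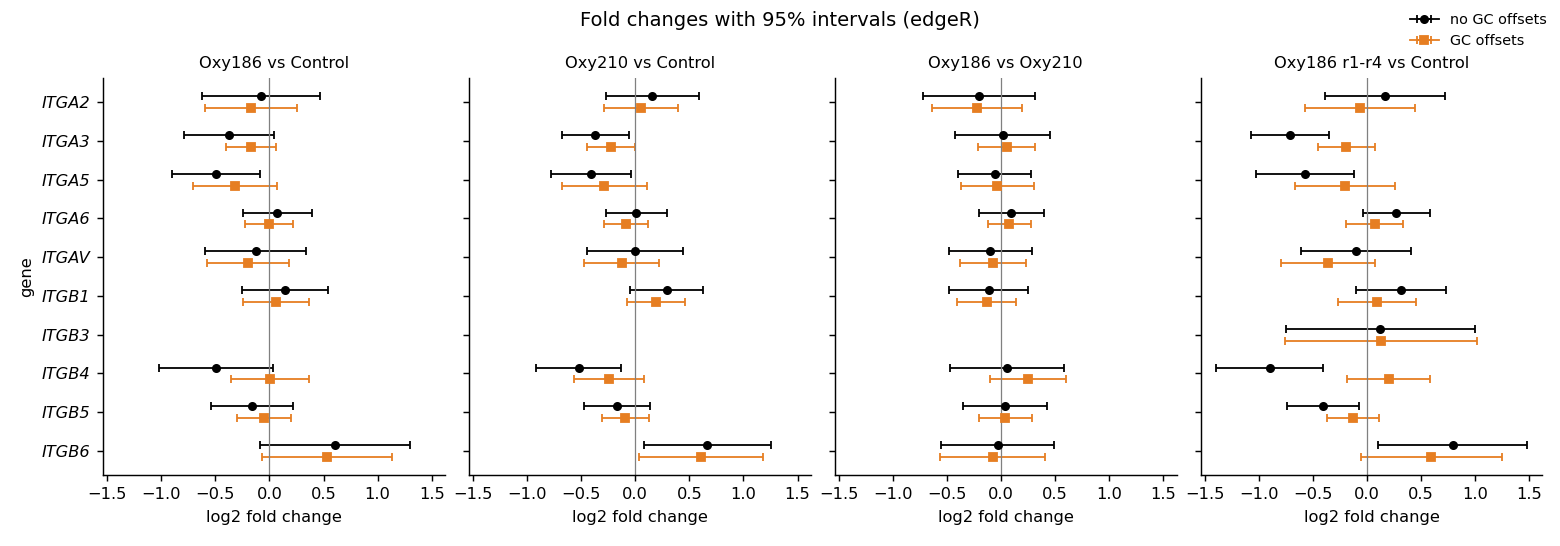
Log2 fold changes (x axis) with 95% intervals from edgeR for each member in the 4 comparisons, without GC offsets (black circles) and with them (orange squares). Of these 4, ITGB3 was tested in the last alone, where ITGB4 moves from -0.90 to 0.20 with the offsets, while ITGB6 is at 0.79 and 0.60.

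The 2 compounds, given at the same dose, were compared directly in the 7 Oxy186 and 7 Oxy210 tumors. This is 1 pair of compounds, and p-values were adjusted over all genes tested. None of the 9 members tested passed in edgeR. Log2 fold changes of Oxy186 over Oxy210 ran from -0.20 (ITGA2) to 0.093 (ITGA6), and 0 had an unadjusted p under 0.05, where 4.06% of all genes did (0.917% lower and 3.14% higher). All members overlapped between the groups, and 0.0306% of all genes did not overlap and were lower, 0.0428% higher. DESeq2 and limma voom also gave 0 of 9 at an unadjusted p under 0.05. The intervals do not show that the compounds acted alike. The 95% interval ran from -0.47 to 0.58 for ITGB4, from -0.42 to 0.45 for ITGA3, from -0.40 to 0.28 for ITGA5 and from -0.55 to 0.49 for ITGB6. The sign for several members depended on which Oxy186 tumors entered. ITGB4 was at -0.36 with r1 to r4 against Oxy210 and at 0.46 with r5 to r7, ITGA3 at -0.32 and 0.36, and ITGA6 at 0.29 and -0.20.

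Across the 21 tumors the integrin genes split by the GC content of their exons. Log2 CPM of the GC-rich ITGA3, ITGB5 and ITGB4 rose with the GC slope of the library (Pearson r = 0.86, 0.84 and 0.82, Spearman rho = 0.86, 0.84 and 0.76), and that of the GC-poor ITGA6 and ITGB1 fell with it (r = -0.81 and -0.76, rho = -0.78 and -0.76). ITGA2 (r = -0.59), ITGAV (-0.51) and ITGB6 (-0.49) fell with it too, while ITGA5 (0.38) and ITGB3 (-0.22) did not pass. In all, 8 of 10 relations had an adjusted p of 0.05 or less by Pearson's r (permutation test, 100000 permutations, adjusted over 10), and 6 by Spearman's rho, where ITGAV and ITGB6 had an adjusted p of 0.0575. The slope was fitted on all genes, and such relations were common: 57.5% of 13608 genes had an r at least as far from 0 as that of ITGB6, so the count says little of integrins in particular. With the 2 tumors of most extreme slope left out, r became 0.79, 0.80 and 0.81 for ITGA3, ITGB5 and ITGB4, -0.76 for ITGA6 and -0.64 for ITGB1, but -0.27 for ITGAV, -0.40 for ITGB6 and -0.41 for ITGA2. Without Oxy186 r1 to r4, over 17 tumors, r was 0.82, 0.88 and 0.77 for the GC-rich genes, -0.75 for ITGA6, -0.83 for ITGB1, -0.80 for ITGA2 and -0.71 for ITGAV, while ITGB6 no longer passed (r = -0.44, adjusted p = 0.102, permutation test). Over the 10 genes, this r followed exon GC content with an r of 0.91 and a rho of 0.73, a description over genes, which are not independent and were measured in the same libraries. As the slope is the trend of log2 CPM with exon GC over all genes, this relation follows in large part from its definition. Fold changes followed exon GC content across members as well, with an r of -0.72 in Oxy186, -0.81 in Oxy210 and -0.84 in Oxy186 r1 to r4, each against Control. The same r over all genes is not given here, so these values say little of integrins in particular.

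**Figure D4:**
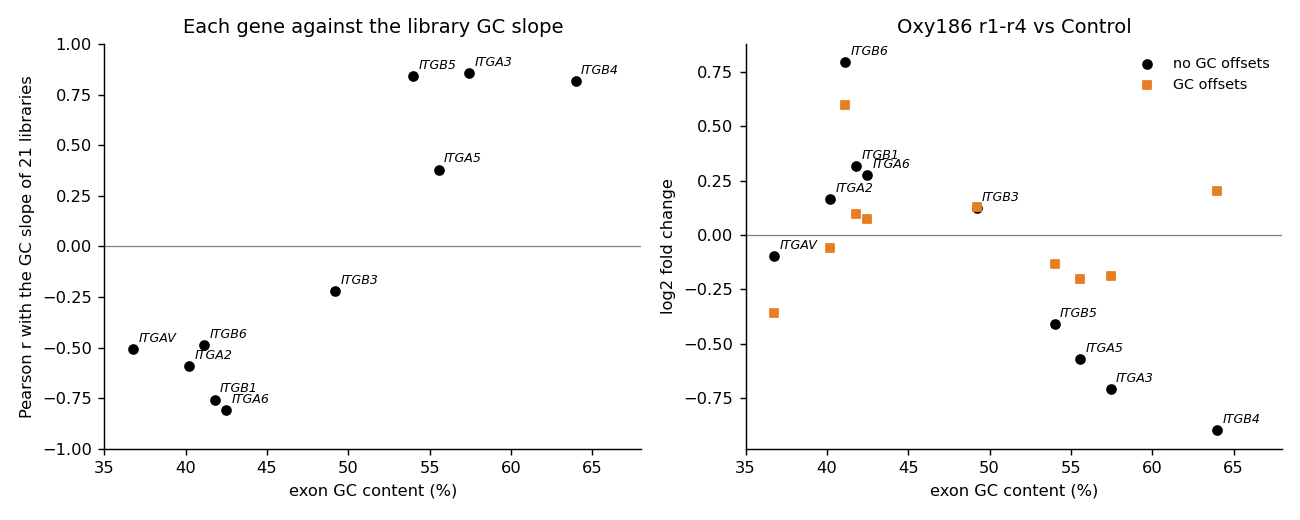
Exon GC content of each gene (x axis, %) against its Pearson r with the library GC slope over 21 tumors (left) and against its log2 fold change in Oxy186 r1 to r4 over Control (right), without GC offsets in black and with them in orange. On the left the 4 genes with exons of 54.0% GC or more have a positive r, and on the right the fall from ITGB6 (0.79) to ITGB4 (-0.90) is lost with the offsets, where ITGB4 is at 0.20.

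Subunits that form a receptor did not all rise and fall together. Of 9 known α-β pairs, 5 had a correlation across the 21 tumors with an adjusted p of 0.05 or less (permutation test, 100000 permutations, adjusted over 9). The share over other pairs of genes is not given here, so this count says little of receptor partners in particular. ITGB1, for example, had a higher r with the gene VPS13B (0.96) than with any of these partners. ITGB1 rose with ITGA2 (r = 0.83, rho = 0.86, adjusted p = 4.5e-05), ITGAV (r = 0.82, rho = 0.80, adjusted p = 4.5e-05) and ITGA6 (r = 0.76, rho = 0.84, adjusted p = 0.00015). It ran against ITGA3 (r = -0.56, rho = -0.51, adjusted p = 0.0151), and ITGAV ran against ITGB5 (r = -0.68, rho = -0.58, adjusted p = 0.00175). The 2 subunits of α6β4 did not pass (r = -0.39, rho = -0.38, adjusted p = 0.118), nor did ITGA5 with ITGB1 (r = -0.11), its only known partner, nor ITGAV with ITGB6 (r = 0.23) or ITGB3 (r = 0.16). Leaving out the 2 tumors farthest from the median of the α subunit gave 0.75, 0.73 and 0.68 for ITGB1 with ITGA2, ITGAV and ITGA6, -0.44 with ITGA3 and -0.50 for ITGAV with ITGB5. Without Oxy186 r1 to r4, r was 0.86, 0.85, 0.77, -0.59 and -0.75 for these 5 pairs.

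Removing the GC trend of each library changed which pairs went together. ITGA6 and ITGB4 then rose together (r = 0.77, rho = 0.70, adjusted p = 0.00036, permutation test), with r = 0.71 without the 2 farthest tumors. ITGB1 still rose with ITGA2 (r = 0.75, adjusted p = 0.000405), ITGAV (r = 0.69, adjusted p = 0.00165) and ITGA6 (r = 0.53, adjusted p = 0.0288). The relations of ITGA3 with ITGB1 (r = 0.12, adjusted p = 0.792) and of ITGAV with ITGB5 (r = -0.37, adjusted p = 0.150) no longer passed. In each of these 2 pairs 1 gene is GC-rich and the other GC-poor, as in ITGA6 and ITGB4. ITGA5 and ITGB1 also differ in this way. They were then at r = 0.38 (adjusted p = 0.150) and rho = 0.49 (adjusted p = 0.0492), both by permutation test. What caused these changes was not tested.

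**Figure D5:**
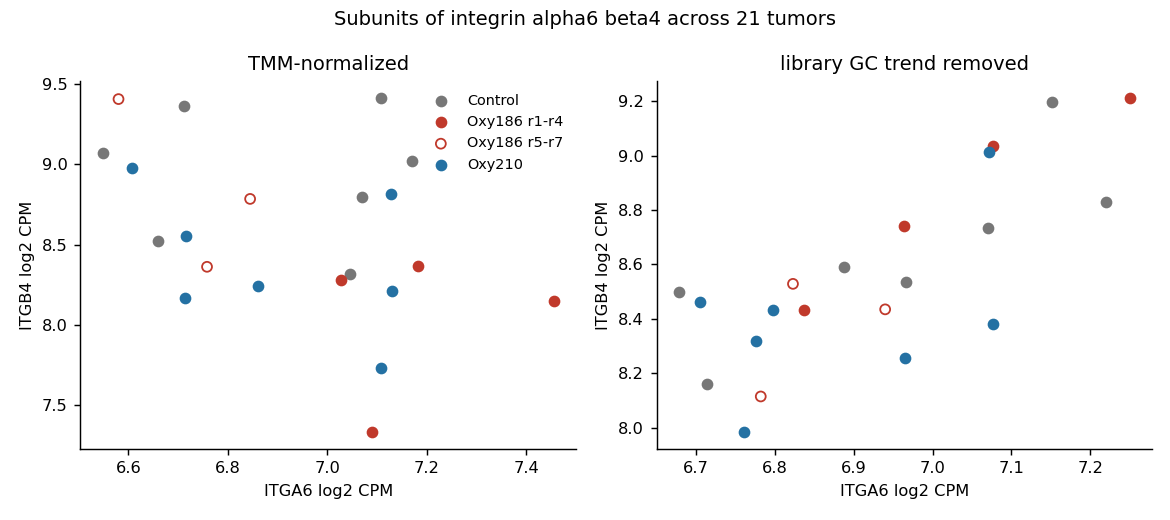
Log2 CPM of ITGA6 (x axis) and ITGB4 (y axis) in each of 21 tumors after TMM normalization (left) and after removal of the GC trend of each library (right), colored by group with Oxy186 r5 to r7 as open circles. The Pearson r is -0.39 on the left and 0.77 on the right.

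Within the single groups of 7, the signs of the ITGB1 pairs with ITGA2, ITGAV and ITGA6 were the same in each. For ITGB1 with ITGA2, r was 0.97 in Control, 0.84 in Oxy186 and 0.77 in Oxy210. For ITGAV with ITGB6 it was 0.52 in Control, 0.49 in Oxy186 and -0.76 in Oxy210, and the difference between groups was not tested.

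For each member, the gene with the most similar log2 CPM over the 21 tumors was sought among well-counted genes (mean log2 CPM of 1 or more). It was VPS13B for ITGB1 (r = 0.96), PRKCSH for ITGB5 (r = 0.97), EHD1 for ITGA3 (r = 0.94), PDE4A for ITGB4 (r = 0.94), ANO6 for ITGA2 (r = 0.93), FASTKD1 for ITGB6 (r = 0.91), GNA13 for ITGA6 (r = 0.89) and FGF2 for ITGAV (r = 0.89). ITGA5 was most like PFKFB4, a glycolysis regulator known to be induced by low oxygen (r = 0.84), and the sparse ITGB3 most like MMP1, a collagenase (r = 0.74). ITGB4 was the second most similar gene to ITGA3 (r = 0.93). These are descriptions over the same libraries, whose GC slopes differ, and carry no test.

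Other genes of the adhesion system were read from 6 lists by role. Against Control, no gene of any list had an adjusted p of 0.05 or less with all 7 Oxy186 or with 7 Oxy210 tumors in edgeR, where 0% of all genes did. At an unadjusted p under 0.05 the hemidesmosome and tetraspanin list had 3 of 7 genes lower and 0 higher in Oxy210 (8.12% of all genes lower). They were COL17A1, the hemidesmosomal collagen (log2 fold change -1.14, SE 0.29, adjusted p = 0.212), and the tetraspanins CD81 (-0.52) and CD9 (-0.33), and the list median was -0.33, against 0.0086 over all genes. With GC offsets it was again 3 of 7 lower. DESeq2 called 1 gene of this list at an adjusted p of 0.05 or less, and limma voom called 0. Among 20 matrix ligands, LAMB3 (-0.50) and LAMA3 (-0.58), which encode chains of laminin-332, the ligand of α3β1 and α6β4, were lower at the unadjusted p, and LAMB1 (0.32) and LAMC1 (0.27) were higher, each with an adjusted p from 0.261 to 0.346. In the Oxy186 group, COL17A1 (-0.73) and LAMB3 (-0.46) were, in edgeR, the only genes of the 6 lists of adhesion genes at an unadjusted p under 0.05. That is 2 of 81 genes, both lower, where 2.36% of all genes were lower and 1.44% higher. The count was thus near the share over all genes.

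In Oxy210 against Control the 6 lists together had 4 of 81 genes higher and 9 lower at an unadjusted p under 0.05. Of all genes, 5.72% were higher and 8.12% lower, 13.8% in all, so these counts were near the share over all genes. The remaining lists had few such genes. Adhesion adaptors had 1 of 18 higher, ILK (0.89), and 1 lower, TNS4 (-0.42). Integrin signaling genes had 1 of 17 higher, DOCK1, and 2 lower, RAC1 and GRB2, and the regulators of integrin inactivation and recycling had 0 of 8 higher and 1 lower, SNX17. Of 16 other integrin subunits, 11 were tested and 0 were at an unadjusted p under 0.05 against Control in either group in edgeR, and 1 in Oxy210 with DESeq2. Between Oxy186 and Oxy210, these 6 lists held 0 of 81 genes at an adjusted p of 0.05 or less in edgeR and 6 of 81 at an unadjusted p under 0.05, where 4.06% of all genes were.

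In Oxy186 r1 to r4 against Control, genes of every one of these lists were lower at an adjusted p of 0.05 or less, where 15% of all genes were. The hemidesmosome and tetraspanin list had 5 of 7 lower and 0 higher, with a median log2 fold change of -1.0: PLEC (-1.41, adjusted p = 0.00278), CD81 (-1.0, 0.00444), CD82 (-1.08, 0.00644), CD151 (-0.73, 0.0183) and COL17A1 (-1.16, 0.0290), all from edgeR. PLEC encodes plectin, which links ITGB4 to keratin filaments, and CD151 is a tetraspanin that binds laminin-receptor integrins. Matrix ligands had 2 of 20 lower, LAMA5 (-1.74, adjusted p = 0.00146) and LAMB3 (-0.71, 0.0158), and 1 higher, FN1, the gene of fibronectin (0.66, 0.0450). Adhesion adaptors had 4 of 18 lower and 0 higher: PXN (-0.94, adjusted p = 0.00171), ZYX (-1.0, 0.00623), TNS4 (-0.85, 0.0210) and FLNA (-0.83, 0.0323). Integrin signaling genes had 5 of 17 lower, with BCAR1 (-1.38), GIT1 (-0.81) and the kinase SRC (-0.75) among them, and 1 higher, RAP1A (0.51), a small GTPase that activates integrins. Other integrin subunits had 3 of 12 lower, ITGA7 (-0.86), ITGA2B (-0.88) and ITGB7 (-1.71), and the regulators of inactivation and recycling had 2 of 8 lower, SHARPIN (-0.99) and SNX17 (-0.65). With GC offsets, 0 genes of any of these lists, and 0 of the 10 members, had an adjusted p of 0.05 or less in edgeR, where 4.05% of all genes still did (2.26% lower and 1.79% higher), and the median of the hemidesmosome and tetraspanin list was 0.030. As the GC slopes of r1 to r4 (-0.51 to -0.18) all lay below those of the 7 Control tumors (-0.15 to 0.40), a change in these genes and a difference between the libraries cannot be told apart in this comparison.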

How the data were processed

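RNA-seq libraries from 21 xenograft tumors were used. The authors trimmed reads with Trimmomatic 0.39, aligned them with STAR 2.7.6a to a combined GRCh38.p13 and GRCm39 genome, kept alignments to human chromosomes and counted them with featureCounts (Subread 2.0.1). They deposited raw counts for all tumors, and log2 CPM for Control and Oxy186 r1 to r4, which the recomputed values matched to within 4.97e-14 over 16852 genes. Counts were tested with edgeR 4.0.16 (filterByExpr, TMM, quasi-likelihood test, Benjamini-Hochberg adjustment over all genes tested), in R 4.3.3. Called genes had a fold change above 2 with an adjusted p of 0.05 or less. Log2 CPM used a prior count of 2. The test was checked on simulated data without a GC trend between libraries, so that check does not cover differences in GC slope. limma 3.58.1 (voom, the study's test) and DESeq2 1.42.0 were alternatives. GC offsets came from a spline with 4 degrees of freedom per library, fitted on genes whose mean log2 CPM was 1 or more. Positions, exon lengths, exon overlaps and exon GC content came from GENCODE 44 on GRCh38. The study used an earlier GENCODE release, so the exons it counted may differ from those used here. Library totals (13787493 to 17865119) left ITGB3 alone near the detection limit. No 2 tumors of a group agreed within counting error (smallest chi-square over its degrees of freedom 10.88), and p-values measure the spread between tumors, each taken as 1 mouse. The members and lists were chosen with earlier results of these data known. Genes named are all members, up to 4 genes of a list with the smallest p among those with an adjusted p of 0.05 or less (the 2 smallest where none had one), and the most similar gene of each member. CD9, LAMB1, LAMC1 and GRB2, and COL17A1 in r1 to r4, fall outside that rule and were named after their values were seen. Protein sequences were not used here.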

Additional observations from a re-analysis of the deposited data

How the results depend on the processing

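No clear pairing of tumors by replicate number was seen, though this check cannot exclude one. Deviations from group means in same-numbered tumors correlated at -0.398 to 0.0451 between Control and Oxy186, with 0 of 7 pairs above 0.1. They correlated at -0.398 to 0.329 between Control and Oxy210 (3 of 7) and at -0.322 to 0.114 between Oxy186 and Oxy210 (1 of 7). With the replicate block the genes called were 0 for Oxy186 and 1 for Oxy210 against Control, and 0 between the compounds, and for r1 to r4 the count moved by less than 1.5 times, where 1 integrin gene, ITGB6 (1.17), was then called. The cause of the changes below was not tested.

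Counts of called genes moved from 0 for Oxy210 against Control to 22 with DESeq2 and 7 without the filter. Between the compounds they moved from 0 to 1 without the filter, to 1 with all 21 libraries in one fit, to 1 with GC offsets, to 1 with GC offsets and the replicate block, to 749 with r1 to r4 in place of all 7 and to 17 without r1 to r4. For r1 to r4 against Control, 1406 became 3323 by the adjusted p alone, 202 with GC offsets, 62 with GC offsets and the replicate block, and 997 to 1614 when 1 library was left out. Integrin genes at an adjusted p of 0.05 or less there went from 2 to 4 without the filter, 0 with GC offsets and 0 with GC offsets and the block, and from 1 (without Oxy186 r3) to 4 (without Control r7) when 1 library was left out. By the fold change and adjusted p they were 0 to 1, the 1 being ITGB4 without Oxy186 r1, at -1.0. The pair relations that passed went from 5 to 2 within Control, 0 within Oxy186 and 2 within Oxy210. Relations with the GC slope went from 8 to 4, 4 and 0, an alternative chosen after seeing the data. The longest transcript kept 6 of 10 places in the order of levels.

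Signs that changed were mostly of small values. In Oxy186 against Control they were ITGA6 (-0.0068) and ITGB4 (0.0065) with GC offsets, ITGA6 (-0.0029) with offsets and block, and ITGA6 (-0.20), ITGB1 (-0.069) and ITGB5 (0.13) without r1 to r4. In Oxy210 against Control they were ITGAV with DESeq2 (-0.0049), RLE (-0.0049), no filter (-0.0068), a minimum of 10 counts (-0.0048), all 21 libraries (-0.019), GC offsets (-0.13) and offsets with block (-0.091), and ITGA6 with all 21 libraries (-0.011), GC offsets (-0.083) and offsets with block (-0.078). Between the compounds they were ITGA3 and ITGB4 with limma voom (-0.024, -0.013) and with the block (-0.022, -0.00034), ITGA3 and ITGB5 with library size alone (-0.028, -0.012), ITGA2 (0.031), ITGA3 (-0.32), ITGB1 (0.050), ITGB4 (-0.36), ITGB5 (-0.22) and ITGB6 (0.14) with r1 to r4 in place of all 7, and ITGA5 (0.041) and ITGA6 (-0.20) without r1 to r4. In r1 to r4 against Control they were ITGA2 (-0.062) and ITGB4 (0.20) with GC offsets, ITGAV (0.21) with the block and ITGB4 (0.33) with both. Pair correlations changed sign for ITGA5 and ITGB1 with library size alone (0.079), within Control (0.28) and within Oxy210 (0.20). They also did with the GC trend removed, to 0.12 (ITGA3, ITGB1), 0.38 (ITGA5, ITGB1), 0.77 (ITGA6, ITGB4) and -0.020 (ITGAV, ITGB6), and within Oxy210 for ITGAV with ITGB3 (-0.027) and ITGB6 (-0.76). Relations with the GC slope changed sign within Oxy210 for ITGA5 (-0.079), ITGB3 (0.13) and ITGB6 (0.50).

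Leaving out 1 library, the sign changed in Oxy186 against Control for ITGA2 (-0.25 to 0.064) and ITGAV (-0.23 to 0.00087), in Oxy210 against Control for ITGA6 (-0.047 to 0.061) and ITGAV (-0.11 to 0.096), and between the compounds for ITGA3 (-0.15 to 0.14), ITGA5 (-0.16 to 0.011), ITGAV (-0.15 to 0.0052), ITGB4 (-0.17 to 0.19), ITGB5 (-0.11 to 0.12) and ITGB6 (-0.14 to 0.094). For r1 to r4 it did for ITGA2 (-0.093 to 0.37), ITGAV (-0.20 to 0.031) and ITGB3 (-0.29 to 0.35).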

Other observations

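Among the 30 sets of 7 tumors formed by 10 genes and 3 groups, none had a tumor far from the rest of its group in log2 CPM, where chance would give about 1.5. ITGB6 varied most among the well-counted members in Control, with an SD of 0.78 in log2 CPM and a 3.88-fold range from r1 to r6, against an SD of 0.42 and a 2.11-fold range in Oxy210. ITGA6 varied least over the 21 tumors, by 1.87-fold, and ITGB4 by 4.24-fold.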
